A study of Gallus gallus with 32 samples.

Results

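The comparison was between 8 female broiler chickens fed a comfrey supplement and 8 female broilers fed the control diet, chosen by the sex and diet labels alone. These 16 birds, called hens below, are 16 of the 32 birds of the study, and the other 16 are males split over the same diets. All birds carried the same breed label, the same tissue label of whole blood cells and the same age entry of 32 under a heading of months. Such an age would be unusual for broilers, so the unit of the entry is uncertain, and "hens" stands here for female birds of any age. RNA was purified from blood clots ground in liquid nitrogen and hybridised to expression arrays, with 1 array for each bird. The labels state neither the amount of comfrey nor the length of feeding.

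Chicken red cells keep their nucleus and go on carrying RNA, so most of the signal of chicken blood comes from them. The remaining RNA comes from heterophils (the avian counterpart of neutrophils), lymphocytes, monocytes and thrombocytes, which are nucleated cells that do the work of platelets. Comfrey is a mineral-rich and protein-rich forage herb that contains allantoin, phenolic acids and pyrrolizidine alkaloids. The alkaloids become reactive when cytochrome P450 enzymes, mainly those of the liver, oxidise them.

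Each value is the deposited log2 signal of a probe set, a group of array probes that report on 1 transcript. A difference is the mean of the comfrey hens minus the mean of the control hens on that scale. Group means are given ± SD over 8 hens, and fitted differences with their standard error (SE). In hens, array medians lay between 6.52 and 6.60, single values between 0.9 and 13.95, and correlations between arrays between 0.964 and 0.984. The signal of *HINTW*, a gene of the female-specific W chromosome, lay between 12.05 and 12.56 in comfrey hens and between 11.65 and 12.53 in control hens. In males it lay between 4.87 and 5.54, so no bird went against its sex label by this gene. The blood label also held: *HBAD*, an adult alpha-type globin, had 13.86 ± 0.05 in comfrey hens and 13.89 ± 0.05 in control hens, near the top of the scale. In bulk blood, fewer cells of a type and less RNA per cell cannot be told apart, which applies to every cell marker below.

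No gene in the blood of hens passed the test for diet. All 17894 probe sets were compared with limma's moderated test on the 16 arrays, and 0 had a Benjamini-Hochberg adjusted p under 0.05 (0% of those tested, lowest adjusted p 0.991). At an unadjusted p under 0.05, 749 probe sets differed, which is 4.19% of those tested and close to the share that this threshold gives where nothing differs. Comfrey hens had the higher mean at 330 of them and the lower mean at 419. With each array's median subtracted the split turned to 406 higher and 345 lower, so the balance between the directions depended on the scaling.

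The number of arrays set how small a difference could be seen. The median difference over all probe sets was -0.009 and its median SE 0.11, against a median SD of 0.223 between birds of the same diet. For 79.7% of probe sets the 95% confidence interval of the difference lay within 0.5 log2 units of 0, and for 96.4% within 1. Among the 4760 probe sets with a mean signal of at least 8, 92.0% had an interval within 0.5. A difference of 1, which is a doubling or halving of signal, was therefore outside the interval for most of the measured genes.

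**Figure D1:**
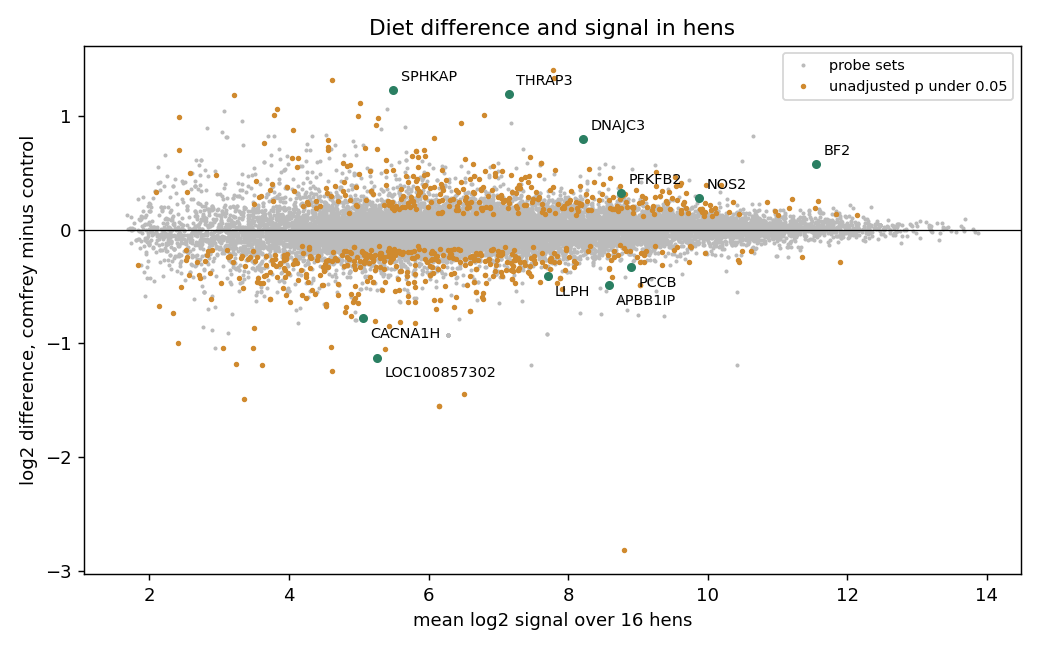
Difference between diets (comfrey minus control, log2) of each of 17894 probe sets in hens against its mean log2 signal over 16 hens. Orange points have an unadjusted p under 0.05, green points are named genes, and the cloud is widest among dim probe sets and narrow above a signal of 8. The lowest point, at -2.82, is a probe set with no gene symbol.

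The smallest p belonged to *CACNA1H*, which encodes the pore-forming subunit of a T-type calcium channel, a channel that opens at small depolarisations. Its signal was 4.25 at lowest, 4.69 at the median and 5.04 at highest in comfrey hens, against 4.86, 5.57 and 5.85 in control hens. In 6 of 8 comfrey hens it lay below every control hen, and the groups overlapped only in the other 2. The means were 4.67 ± 0.25 in comfrey hens and 5.45 ± 0.36 in control hens, a difference of -0.78 (SE 0.15, 95% interval -1.09 to -0.47). The unadjusted p was 6e-05 and the adjusted p 0.991, so the gene did not pass.

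*CACNA1H* was the 1 probe set whose call depended on which birds shared the estimate of spread. In a model of all 32 arrays with a mean for each diet and sex, its diet difference in hens had an adjusted p of 0.0242, the only call among 17894 probe sets (0.00559%). Its signal in blood was dim. Its difference was -0.82 in hens numbered 1 to 16 and -0.75 in hens numbered 17 to 32, the bird numbers being those of the sample titles. The first set holds 4 comfrey and 6 control hens, and the second 4 comfrey and only 2 control hens. Every value for hens 17 to 32, here and below, thus rests on 2 control hens and is given without an SE. In males *CACNA1H* differed by -0.03, and the diet-by-sex difference of 0.75 (males minus hens, SE 0.18) had an adjusted p of 0.488.

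Other subunits of voltage-gated calcium channels had smaller differences of both signs. Of 15 measured subunit genes, 6 had positive and 9 negative differences and a median of -0.019 against -0.003 over all probe sets with 1 gene symbol. *CACNA2D1* and *CACNA2D2*, which encode auxiliary subunits that carry channels to the membrane, differed by -0.23 (SE 0.12) and -0.26 (SE 0.20). *CACNA2D2* had -0.57 in hens 1 to 16 and 0.38 in hens 17 to 32, and -0.16 without control hen 9. *CACNG3*, the brightest of the list, had 7.43 ± 0.16 in comfrey hens and 7.37 ± 0.28 in control hens. None of the 15 passed, and *CACNA1H* alone had an unadjusted p under 0.05.

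No gene of calcium, phosphate and vitamin D handling passed. Among 24 measured genes, 18 differences were negative and 6 positive, and their median was -0.025. *CALCR*, the calcitonin receptor, had 3.86 ± 0.21 in comfrey hens and 4.07 ± 0.19 in control hens, the only member with an unadjusted p under 0.05 in the limma fit. *CYP24A1*, which inactivates vitamin D, differed by -0.23 (SE 0.12), and *XPR1*, a phosphate exporter and the brightest member, by 0.11 (SE 0.07), with 0.19 in hens 1 to 16 and -0.04 in hens 17 to 32. Only 10 of the 24 had a mean signal of at least 6, and dim probe sets leaned negative throughout the array. The share of negative differences was 59.8% at signals under 4, 59.1% at 4 to 6, 54.6% at 6 to 8, 43.4% at 8 to 10 and 40.2% from 10 upward. Over all probe sets with 1 gene symbol, 48.9% of differences were positive. The part of the negative lean in the lists of dim genes was not tested. Nor was that of the positive lean at signals of 8 and more in lists of brighter genes, such as those of the unfolded protein response and the interferon response.

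**Figure D2:**
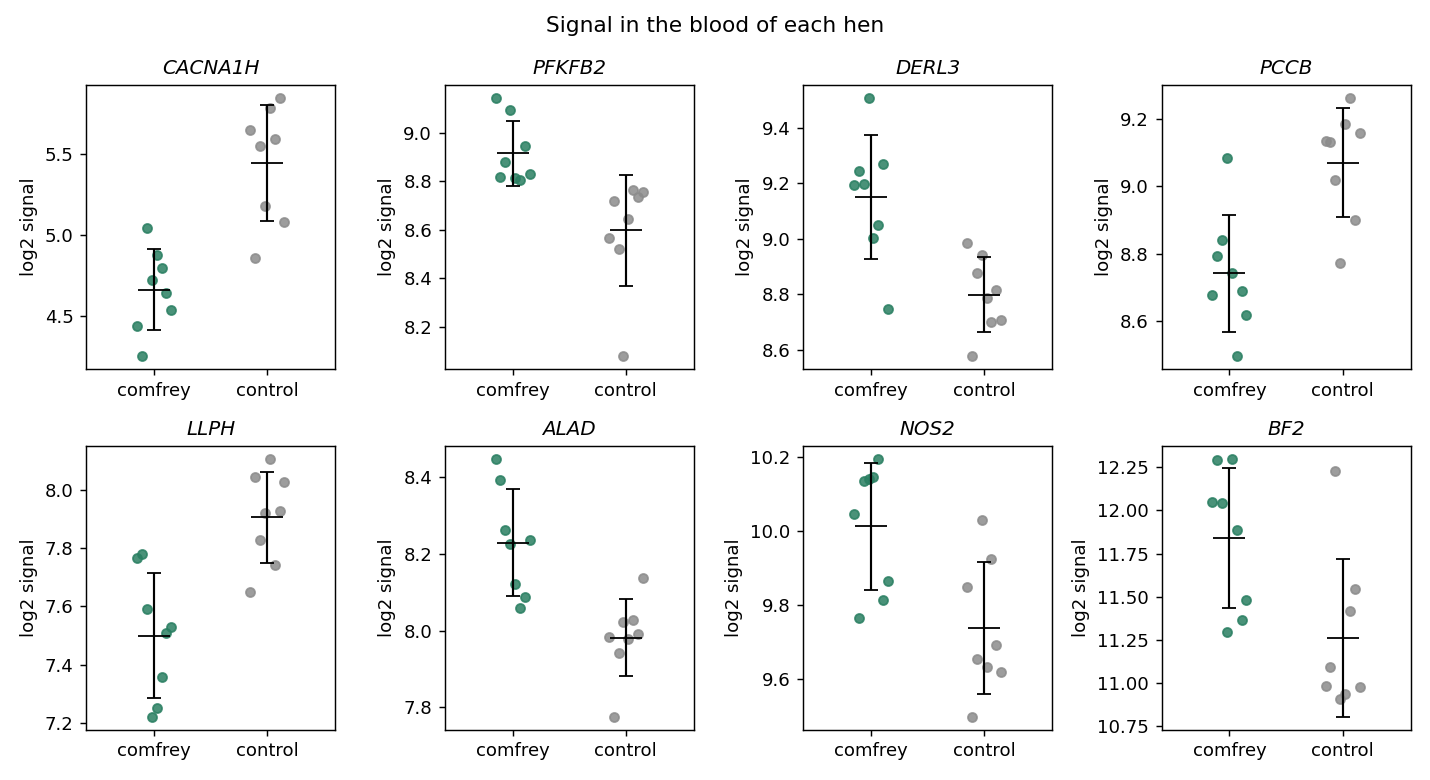
Log2 signal of 8 genes in each hen, comfrey hens in green on the left and control hens in grey on the right, with the mean and SD of 8 hens as a black bar. PFKFB2 is the 1 gene whose groups do not overlap (lowest comfrey hen 8.80, highest control hen 8.76). The other 7 overlap in at least 1 hen.

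Among fuel and lipid genes, *PFKFB2* was the only probe set of the whole array in which the 2 groups of hens did not overlap (0.00559% of those tested). It encodes an enzyme that sets the level of fructose 2,6-bisphosphate, the activator of glycolysis at phosphofructokinase. Its signal was 8.80 at lowest, 8.85 at the median and 9.14 at highest in comfrey hens, against 8.08, 8.68 and 8.76 in control hens. The gap between the groups was small, and control hen 9 lay far below the other control hens. The difference was 0.32 (SE 0.09, unadjusted p = 0.00377, adjusted p = 0.991 by limma), with 0.43 in hens 1 to 16 and 0.10 in hens 17 to 32.

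*PCCB*, the beta subunit of propionyl-CoA carboxylase, which feeds carbon from odd-chain fatty acids and some amino acids into the citric acid cycle, had the opposite sign. Its signal was 8.50, 8.72 and 9.08 at lowest, median and highest in comfrey hens, against 8.77, 9.13 and 9.26 in control hens. In 5 of 8 comfrey hens it lay below every control hen. The difference was -0.33 (SE 0.09, unadjusted p = 0.0016), against 0.15 in males. The diet-by-sex difference of 0.47 (SE 0.11) had the smallest p of a positive sign among probe sets with 1 symbol, and with an adjusted p of 0.488 it did not pass.

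*KYAT3*, an aminotransferase of kynurenine and cysteine conjugates, was dim at 4.74 ± 0.18 in comfrey hens and 4.45 ± 0.14 in control hens. *AGPAT3*, an acyltransferase of phospholipid synthesis, had 5.79 ± 0.21 in comfrey hens and 5.43 ± 0.18 in control hens, but its other probe set differed by -0.04. The list of lipid and fuel genes had both signs in nearly equal number. That list holds none of *PFKFB2*, *PCCB* and *KYAT3*, nor the first named probe set of *AGPAT3*. Of its 28 measured members 15 had positive and 13 negative differences, with a median of 0.017. None of the 28 had an unadjusted p under 0.05. *PDK4*, the kinase that turns off pyruvate oxidation, differed by -0.50 (SE 0.28), and *HADHA*, of mitochondrial fat oxidation, by -0.39 (SE 0.22). *PDK4* had -0.92 in hens 1 to 16 and 0.19 in hens 17 to 32, and -0.30 without comfrey hen 8. *HADHA* had -0.10 in hens 1 to 16 and -1.14 in hens 17 to 32, and -0.26 without control hen 25.

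No gene of protein folding in the endoplasmic reticulum, where secreted and membrane proteins mature, passed, and the named ones had both signs. *DERL3*, a derlin that takes part in moving misfolded proteins out for degradation, had 8.75, 9.19 and 9.51 at lowest, median and highest in comfrey hens, against 8.58, 8.80 and 8.99 in control hens. It lay above every control hen in 7 of 8 comfrey hens, and the eighth lay among the lower controls. The difference was 0.35 (SE 0.09, unadjusted p = 0.0016, adjusted p = 0.991). *DNAJC3*, a co-chaperone that restrains the stress kinase PERK, had 8.61 ± 0.43 in comfrey hens and 7.81 ± 0.79 in control hens, a difference of 0.80 (SE 0.29).

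*CANX*, the lectin chaperone calnexin, had 7.77 ± 0.31 in comfrey hens and 7.14 ± 0.69 in control hens, a difference of 0.64 (SE 0.25). It was 0.75 in hens 1 to 16 and -0.03 in hens 17 to 32, and control hens ran from 6.14 to 8.13, almost the highest comfrey hen at 8.16. *HSPA13*, a microsomal relative of HSP70, differed by 0.23 (SE 0.09), with 0.33 in hens 1 to 16 and 0.00 in hens 17 to 32. Among transcription factors of the response, *ATF4* had 9.96 in comfrey hens and 9.72 in control hens on average, a difference of 0.23 (SE 0.13), with 0.33 in hens 1 to 16 and -0.06 in hens 17 to 32. *XBP1*, another, had 11.14 ± 0.17 in comfrey hens and 11.14 ± 0.08 in control hens. *HSP90B1*, the abundant chaperone GRP94, had 11.82 ± 0.10 in comfrey hens and 11.81 ± 0.09 in control hens, and *HSPA5*, the chaperone BiP, differed by -0.03 (SE 0.13). Of 17 measured genes of the unfolded protein response, a list without *DERL3*, 13 had positive and 4 negative differences and a median of 0.043. Of the 17, 2 had an unadjusted p under 0.05 (*DNAJC3* and *CANX*). The median was 0.083 in hens 1 to 16 and -0.088 in hens 17 to 32. Of 20 heat shock genes and chaperones, 8 were positive and 12 negative, with a median of -0.018.

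Other genes of the same membrane, named for their p and outside that list, had both signs. *PIGX*, of the glycosylphosphatidylinositol anchor pathway, had 6.67 ± 0.21 in comfrey hens and 6.31 ± 0.21 in control hens, and its difference of 0.36 was close to the 0.35 of males. *ALG1*, which adds the first mannose to the precursor of N-linked chains, had 8.87 ± 0.09 in comfrey hens and 9.11 ± 0.13 in control hens. *LRRC59*, a ribosome-binding protein of that membrane, differed by -0.28 (SE 0.10) and *BNIP1*, a SNARE protein of retrograde transport, by -0.20 (SE 0.06).

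No gene of haem synthesis or iron handling passed. *ALAD*, the enzyme of the second step of haem synthesis, had 8.06, 8.23 and 8.45 at lowest, median and highest in comfrey hens, against 7.78, 7.99 and 8.14 in control hens. It lay above every control hen in 5 of 8 comfrey hens, with a difference of 0.25 (SE 0.07, unadjusted p = 0.00244). Its second and brighter probe set differed by 0.05, and the difference of the first was 0.38 in hens 1 to 16 and 0.06 in hens 17 to 32. *STEAP3*, the endosomal reductase of iron taken up with transferrin, had 7.97 ± 0.20 in comfrey hens and 7.60 ± 0.34 in control hens.

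The *STEAP3* difference of 0.37 (SE 0.13, unadjusted p = 0.0126) was 0.61 in hens 1 to 16 and -0.16 in hens 17 to 32. *ALAS1*, the first enzyme of haem synthesis, differed by -0.16 (SE 0.08), and *SLC25A37*, the mitochondrial iron importer, by 0.26 (SE 0.14), with 0.42 in hens 1 to 16 and -0.06 in hens 17 to 32. Of 16 measured haem and iron genes, 10 had positive and 6 negative differences and a median of 0.032, and *STEAP3* was the 1 member at an unadjusted p under 0.05.

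None of the 4 measured globins had an unadjusted p under 0.05, and no red cell membrane gene passed. *HBAD* differed by -0.03 with a 95% interval of -0.13 to 0.07, and *HBA1*, the other adult alpha globin, by -0.02 with an interval of -0.12 to 0.08. Both alpha globins lay near the top of the scale, and compression of differences there was not tested. *HBZ*, an embryonic globin, differed by -0.25 (SE 0.13), and by -0.07 with bird number as a covariate. *HBE*, another globin, differed by 0.04 (SE 0.38), with a wide interval of -0.77 to 0.85. Of 11 erythroid membrane genes and regulators, 7 had positive and 4 negative differences and a median of 0.056 and none at an unadjusted p under 0.05. *SLC4A1*, the anion exchanger band 3, had 11.40 ± 0.20 in comfrey hens and 11.23 ± 0.27 in control hens, and *CA2*, carbonic anhydrase, had 12.97 ± 0.06 in comfrey hens and 13.01 ± 0.12 in control hens.

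**Figure D3:**
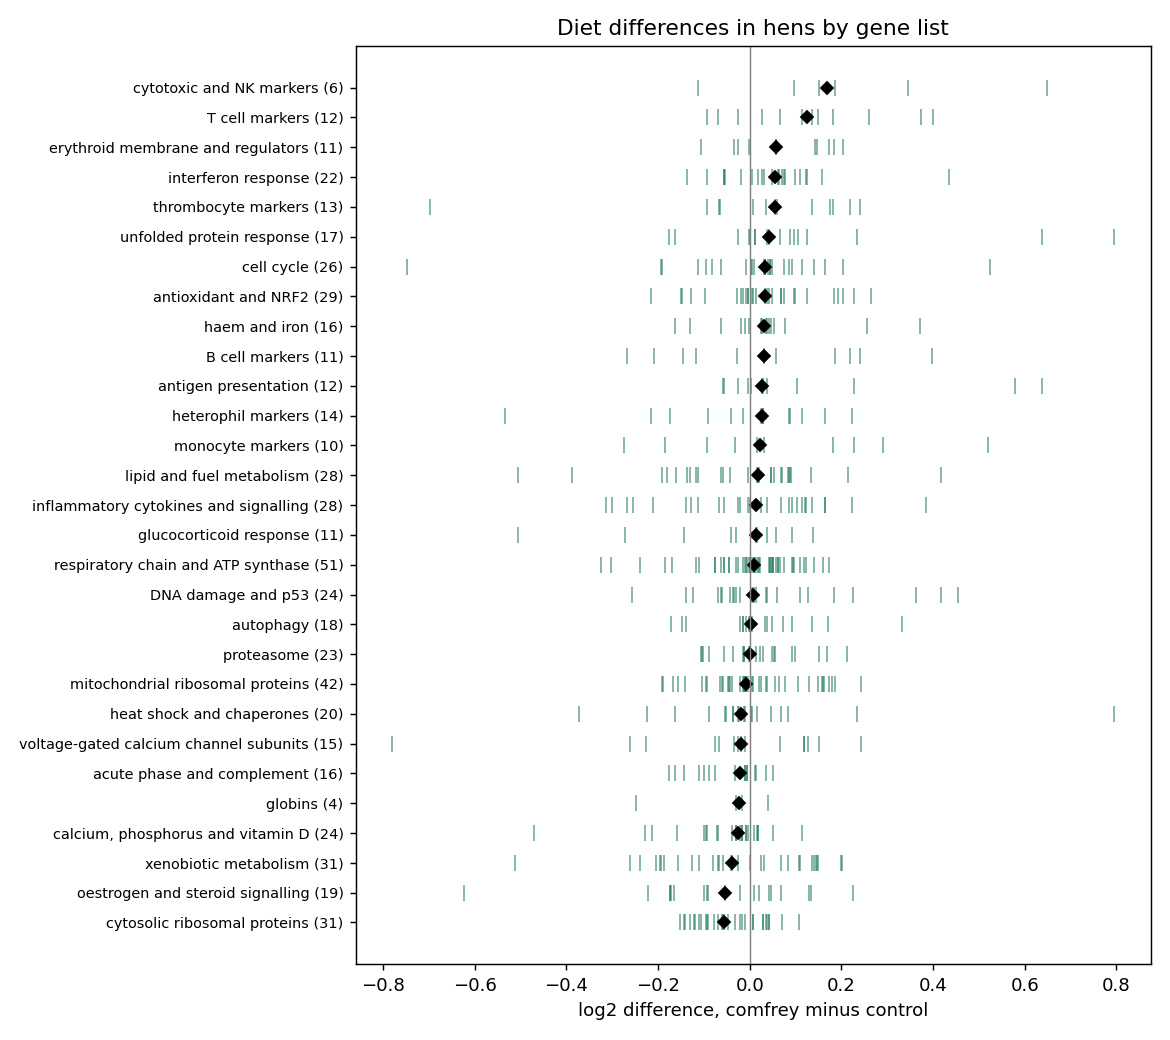
Difference between diets (comfrey minus control, log2) of every measured gene of 29 lists in hens, a tick for each gene and a black diamond for the median, with the number of measured genes in brackets. List medians lie between -0.056 and 0.168, with the same sign in all hens and in both sets of bird numbers for 7 of the 29 lists, and no gene in any list passed the adjusted test.

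The lists of T cell and of cytotoxic markers had the highest medians of the 29 lists, and no marker passed. Of 12 measured T cell markers, 9 had positive and 3 negative differences and a median of 0.124. The median of these genes was 0.092 in hens 1 to 16, 0.050 in hens 17 to 32 and 0.054 in males. Both sets thus lay below the median of all hens. The 4 members with the smallest p, *CTLA4*, *THEMIS*, *IL7R* and *CCR7*, differed by 0.37, 0.40, 0.26 and 0.18. With bird number as a covariate these values were 0.25, 0.18, 0.11 and 0.07. The mean signal over these genes was 7.94 ± 0.16 in comfrey hens and 7.81 ± 0.15 in control hens, so the groups overlapped. *CTLA4*, an inhibitory receptor of activated T cells, had 6.96 ± 0.31 in comfrey hens and 6.59 ± 0.25 in control hens (difference 0.37, SE 0.13, unadjusted p = 0.0132). *CD3E*, a defining chain of the T cell receptor complex, differed by 0.07 (SE 0.08) and *CD3D* by -0.03 (SE 0.15).

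Among 6 cytotoxic and NK cell markers, 5 differences were positive, the median was 0.168, and only 3 markers had a mean signal of at least 6. The median was 0.129 in hens 1 to 16, 0.121 in hens 17 to 32 and -0.065 in males, where 2 of the 6 were positive. *EOMES*, a transcription factor of cytotoxic lymphocytes, had 6.27 ± 0.59 in comfrey hens and 5.62 ± 0.61 in control hens. *GZMA*, a granule protease, differed by 0.35 (SE 0.16) in hens and by -0.59 in males. Of 11 B cell markers, 6 had positive and 5 negative differences and a median of 0.031. *EBF1*, a B cell lineage factor, differed by 0.24 (SE 0.10), with 0.05 in hens 1 to 16 and 0.47 in hens 17 to 32. *CXCR5*, a homing receptor of follicles, differed by 0.19 (SE 0.08).

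No heterophil, monocyte or thrombocyte marker passed, and none of these list medians had the sign of all hens in both sets of bird numbers. The 14 heterophil markers had a median of 0.027, and their mean signal spread more among comfrey hens (7.28 to 8.12) than among control hens (7.56 to 7.91). The median heterophil difference was -0.251 in hens 1 to 16 and 0.215 in hens 17 to 32, so the sets had opposite signs. The 10 monocyte markers had a median of 0.023, with -0.0996 in hens 1 to 16 and 0.231 in hens 17 to 32. *CX3CR1*, the fractalkine receptor, had 6.45 ± 0.48 in comfrey hens and 5.93 ± 0.50 in control hens. The 13 thrombocyte markers had a median of 0.054 over all hens but -0.044 in hens 1 to 16 and -0.078 in hens 17 to 32, with *SELP*, the adhesion receptor P-selectin, at 0.18 (SE 0.10) and none at an unadjusted p under 0.05.

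*BF2*, the main classical class I gene of the chicken MHC, was among the bright genes at an unadjusted p under 0.05. Its signal was 11.30, 11.96 and 12.30 at lowest, median and highest in comfrey hens, against 10.90, 11.04 and 12.23 in control hens. Both diets spanned much of the range, with control hen 7 near the highest comfrey hens and comfrey hen 16 among the lower values. The difference was 0.58 (SE 0.20, unadjusted p = 0.0106, adjusted p = 0.991), with 0.66 in hens 1 to 16 and 0.50 in hens 17 to 32, and 0.32 in males. *B2M*, the partner chain of class I molecules, had 13.18 ± 0.04 in comfrey hens and 13.18 ± 0.05 in control hens, and *TAPBP*, tapasin, differed by -0.06. Of 12 measured genes of antigen presentation, 8 had positive and 4 negative differences and a median of 0.028, and *BF2* and *CANX* were the 2 at an unadjusted p under 0.05. The mean signal over the 12 was 8.97 ± 0.05 in comfrey hens, between 8.90 and 9.06, and 8.85 ± 0.05 in control hens, between 8.78 and 8.92. The ranges overlapped by a narrow margin. The difference of this mean was 0.125, with 0.116 in hens 1 to 16 and 0.095 in hens 17 to 32, and it was 0.028 over the 10 genes other than *BF2* and *CANX*.

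Among signalling genes of leukocytes, *NOS2*, the inducible nitric oxide synthase, had 9.77, 10.09 and 10.20 at lowest, median and highest in comfrey hens, against 9.50, 9.67 and 10.03 in control hens. It lay above every control hen in 5 of 8 comfrey hens. The difference was 0.28 (SE 0.09, unadjusted p = 0.00709), with 0.26 in hens 1 to 16, 0.35 in hens 17 to 32 and 0.01 in males. *CD69L*, a relative of an early activation antigen, had 10.39 ± 0.20 in comfrey hens and 10.00 ± 0.33 in control hens, and its other probe set differed by 0.42.

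*NFKB1*, the p105 precursor of the NF-kappa-B subunit p50, had 8.47 ± 0.21 in comfrey hens and 8.74 ± 0.15 in control hens, and lay below every control hen in 6 of 8. The difference was -0.27 (SE 0.09, unadjusted p = 0.0106), against 0.28 in males. *APBB1IP*, which links Rap1 to integrin activation, had 8.34 ± 0.41 in comfrey hens and 8.82 ± 0.22 in control hens, and lay below every control hen in 7 of 8. Neither passed. Of 28 inflammatory cytokines and signalling genes, 15 had positive and 13 negative differences and a median of 0.013, and *NFKB1* was the only member at an unadjusted p under 0.05. That list holds neither *NOS2* nor *APBB1IP*.

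No interferon response gene passed in hens. Of 22 measured genes, 16 had positive and 6 negative differences and a median of 0.055 and none at an unadjusted p under 0.05. *IFIT5*, the brightest, had 12.09 ± 0.20 in comfrey hens and 12.02 ± 0.22 in control hens. Within the sets of bird numbers the median was 0.011 in hens 1 to 16 and -0.0205 in hens 17 to 32. In males 0 of the 22 had a positive difference and the median was -0.351, and no interferon gene passed the diet-by-sex test. Control male 31 had a mean signal of 11.61 over the 22 genes, against 8.94 to 9.82 in the other control males and 8.98 to 10.35 in comfrey males. Without that bird the male median was -0.166, with 4 of 22 positive. Among 16 acute phase and complement genes, 12 differences were negative in hens and 4 positive, with a median of -0.022, and only 6 of the 16 had a mean signal of at least 6. *C4BPS*, a regulator of complement that is outside that list, differed by 0.42 (SE 0.13).

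No enzyme or receptor of detoxification, the genes that handle plant compounds, passed. Of 31 measured genes, of which 19 had a mean signal of at least 6, 14 had positive and 17 negative differences and a median of -0.038, and 4 had an unadjusted p under 0.05, all lower on comfrey. *SULT1C3*, a sulfotransferase, had 3.27 ± 0.13 in comfrey hens and 3.54 ± 0.25 in control hens. *NR1H4*, the bile acid receptor FXR, had 4.21 ± 0.12 in comfrey hens and 4.37 ± 0.08 in control hens. *AOX1*, aldehyde oxidase, differed by -0.24 (SE 0.10). *CYP1A1*, the monooxygenase induced by aryl hydrocarbons, had 6.21 ± 0.14 in comfrey hens and 6.41 ± 0.20 in control hens, where hen 9 stood highest. Its difference was -0.24 in hens 1 to 16 and -0.03 in hens 17 to 32. Over the whole array, 70 probe sets were lower and 18 higher at that p at signals under 4, where *SULT1C3* lies. The counts were 158 lower and 92 higher at 4 to 6, where *NR1H4* and *AOX1* lie, and 146 lower and 115 higher at 6 to 8, where *CYP1A1* lies. The part of this lean in the list was not tested. *CYB5A*, the brightest member, differed by -0.03 (SE 0.05).

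No antioxidant gene and no gene of the DNA damage response passed. Of 29 measured antioxidant and NRF2 genes, 18 had positive and 11 negative differences and a median of 0.032 and none at an unadjusted p under 0.05. *GCLC*, the rate-limiting enzyme of glutathione synthesis, had 12.31 ± 0.10 in comfrey hens and 12.31 ± 0.06 in control hens, with an interval of -0.11 to 0.12. *SELENOP1*, a selenium carrier, differed by -0.22 (SE 0.12) in hens and by 0.44 in males. Of 24 DNA damage and p53 genes, 13 had positive and 11 negative differences and a median of 0.007. *GADD45A*, induced by genotoxic stress and the brightest member, had 11.67 ± 0.21 in comfrey hens and 11.81 ± 0.19 in control hens. The 4 members with the smallest p had positive differences. These were 0.42 (SE 0.23) for *SESN3*, 0.18 (SE 0.10) for *XPA*, 0.45 (SE 0.28) for *FANCI* and 0.36 (SE 0.26) for *FANCA*. *FANCI* had 0.74 in hens 1 to 16 and -0.12 in hens 17 to 32. None of the 24 had an unadjusted p under 0.05. Of 26 cell cycle genes, 18 had positive and 8 negative differences and a median of 0.034 and none at an unadjusted p under 0.05.

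4 further genes with a small p had both signs, and none passed. *THRAP3*, a splicing factor of nuclear speckles, had 7.05, 7.71 and 8.49 at lowest, median and highest in comfrey hens, against 5.65, 6.44 and 7.77 in control hens. It lay above every control hen in 4 of 8, with a difference of 1.19 (SE 0.29, unadjusted p = 0.000793), and 0.43 in males. *NPM1*, the nucleolar chaperone nucleophosmin, differed by 0.48 (SE 0.14). *LLPH* lay below every control hen in 6 of 8, at 7.50 ± 0.21 in comfrey hens and 7.91 ± 0.16 in control hens. *POLR1A*, the largest subunit of RNA polymerase I, differed by -0.35 (SE 0.105) at 1 probe set and by 0.03 and 0.02 at the other 2.

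No ribosomal or respiratory gene passed. Of 31 cytosolic ribosomal protein genes, 10 had positive and 21 negative differences in hens, with a median of -0.056 and none at an unadjusted p under 0.05. Their mean signal was 9.97 ± 0.15 in comfrey hens and 10.01 ± 0.13 in control hens. In males the difference was positive for all 31 and its median 0.15 (0.091, with 29 positive, without control male 31), and no gene of the list passed the diet-by-sex test. Of 42 mitochondrial ribosomal protein genes, 19 were positive and 23 negative, with a median of -0.009. Of 51 genes of the respiratory chain and ATP synthase, 30 were positive and 21 negative, with a median of 0.010, and *NDUFV3*, of complex I, was the only 1 at an unadjusted p under 0.05 (difference -0.24, SE 0.10).

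No gene of protein turnover or hormone response passed. Of 23 proteasome genes, 13 had positive and 10 negative differences (median 0.001), with *PSMD13*, a subunit of the regulatory cap, at 0.21 (SE 0.08). That gene had 0.34 in hens 1 to 16 and -0.01 in hens 17 to 32. Of 18 autophagy genes, 10 were positive and 8 negative (median 0.003), with *ULK2*, an initiating kinase, at 0.33 (SE 0.13). Of 11 glucocorticoid response genes, 6 were positive and 5 negative (median 0.013). Of 19 genes of oestrogen and steroid signalling, 8 were positive and 11 negative (median -0.055). *HSD17B11*, a steroid dehydrogenase, differed by 0.23 (SE 0.09), with 0.40 in hens 1 to 16 and -0.13 in hens 17 to 32, and *NCOA2*, a coactivator of nuclear receptors, by -0.62 (SE 0.27) with control hen 11 far above the rest.

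The genes that follow, also with a small p, had mixed or unknown roles. *FMNL2*, an actin-nucleating formin, differed by 0.32 (SE 0.08), *MRAS*, a small GTPase, by 0.32 (SE 0.10) and *TNFAIP8L3*, a phosphoinositide transfer protein, by 0.38 (SE 0.10). *SPHKAP*, an anchor of protein kinase A, had 6.11 ± 0.40 in comfrey hens and 4.88 ± 0.94 in control hens. On the negative side, *LOC417551*, a long non-coding RNA, differed by -0.68 (SE 0.17), *MAF*, a leucine zipper transcription factor, by -0.42 (SE 0.12) and *S100B*, a calcium-binding protein, by -0.33 (SE 0.10). *LOC100857302* had 4.70 ± 0.78 in comfrey hens and 5.82 ± 0.37 in control hens. Among bright genes, *PLAA*, of ubiquitin-dependent sorting, differed by 0.39 (SE 0.12), with 0.59 in hens 1 to 16 and 0.01 in hens 17 to 32. *SLC46A3*, a lysosomal transporter, differed by 0.19 (SE 0.07) and *MAU2*, a cohesin loader, by -0.35 (SE 0.12). *KDM7A*, a histone demethylase, differed by -0.19 (SE 0.07), with -0.21 in hens 1 to 16 and -0.02 in hens 17 to 32. The adjusted p was 0.991 for each.

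Probe sets for microRNA genes gave 2 names in each direction. *MIR1640* had 6.80 ± 0.17 in comfrey hens and 7.11 ± 0.16 in control hens, a difference of -0.31 (SE 0.09), with -0.36 in males. *MIR1467* differed by -0.47 (SE 0.14). *MIR1580* differed by 0.59 (SE 0.22), with 0.24 in hens 1 to 16, 1.51 in hens 17 to 32 and -0.24 in males. *MIR206*, known as a muscle microRNA, differed by 0.32 (SE 0.13), with -0.10 in males. The last 3 were dim, and none of the 4 passed.

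**Figure D4:**
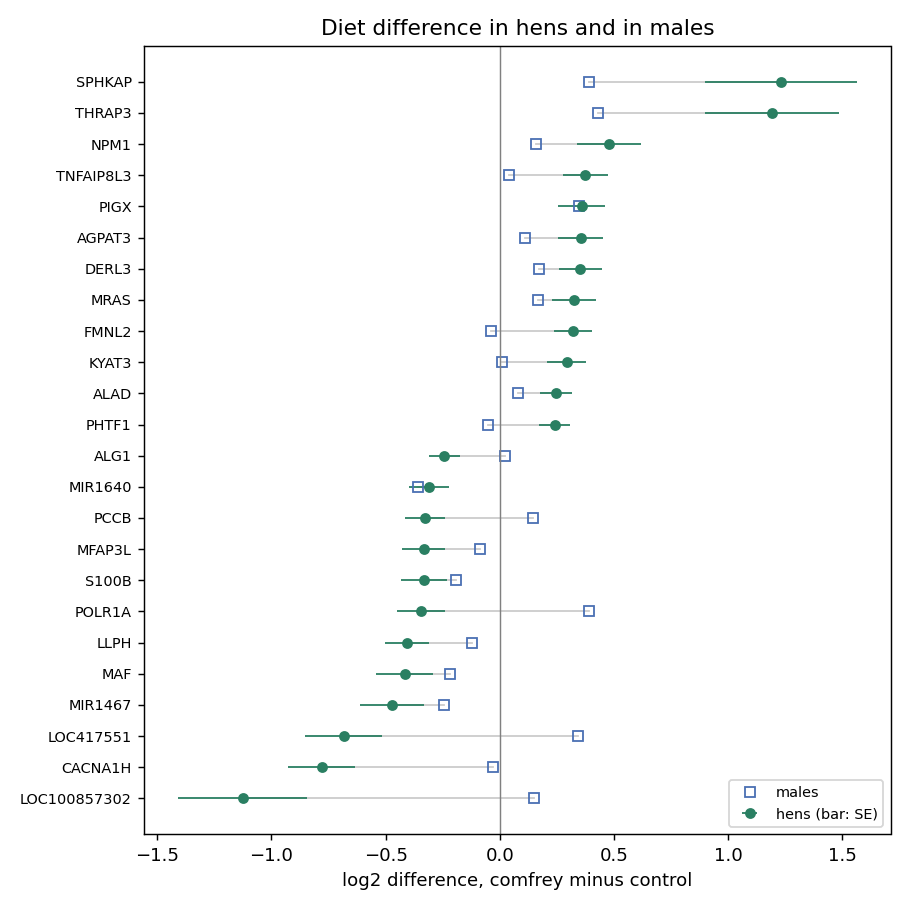
Difference between diets (comfrey minus control, log2) of the 24 genes with the smallest p in hens, 12 in each direction, in hens (green, bar of 1 SE) and in males (blue squares). The genes were chosen on the values of hens, so their sizes in hens are a description. PIGX and MIR1640 have nearly the same difference in both sexes.

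The 24 genes with the smallest p in hens, 12 in each direction, were compared with the males, which did not enter their choice. In males 17 of the 24 had the same sign as in hens. The share of all probe sets with the same sign in both sexes was not counted, so the 17 has no background beside it. The diet-by-sex difference had an unadjusted p under 0.05 for 9 of the 24 and a lowest adjusted p of 0.488. That difference contains the hen difference by which the 24 were chosen, so the choice itself favours a small p. Over the whole array 0 probe sets passed the diet-by-sex test (0%), with 1020 at an unadjusted p under 0.05. Of the 1020, 672 had a higher diet difference in males and 348 a higher one in hens. Control males were birds 3, 13, 17, 20, 22, 27, 29 and 31, and comfrey males birds 2, 4, 6, 14, 19, 21, 24 and 32. Control birds thus lay mostly above 16 in males and mostly up to 16 in hens. The male values and diet-by-sex differences given here were fitted without bird number and carry this imbalance. In the model of all 32 arrays 0 probe sets passed the diet test for males, with 1850 at an unadjusted p under 0.05. The lowest adjusted p was 0.414. The diet difference of hens had 704 probe sets at that unadjusted p in the same model. With hens taken from their own fit, the number at an unadjusted p under 0.05 in both sexes was 80 (0.447% of those tested). Of these, 46 had the same sign. Whether 80 exceeds the overlap of unrelated lists was not tested. *GUCA1B*, a calcium sensor of photoreceptors, had the smallest p among negative diet-by-sex differences of probe sets with 1 symbol, and it did not pass. That difference was -0.44 (SE 0.12), with 0.15 in hens and -0.30 in males. In hens *GUCA1B* had -0.02 in numbers 1 to 16 and 0.46 in numbers 17 to 32.

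**Figure D5:**
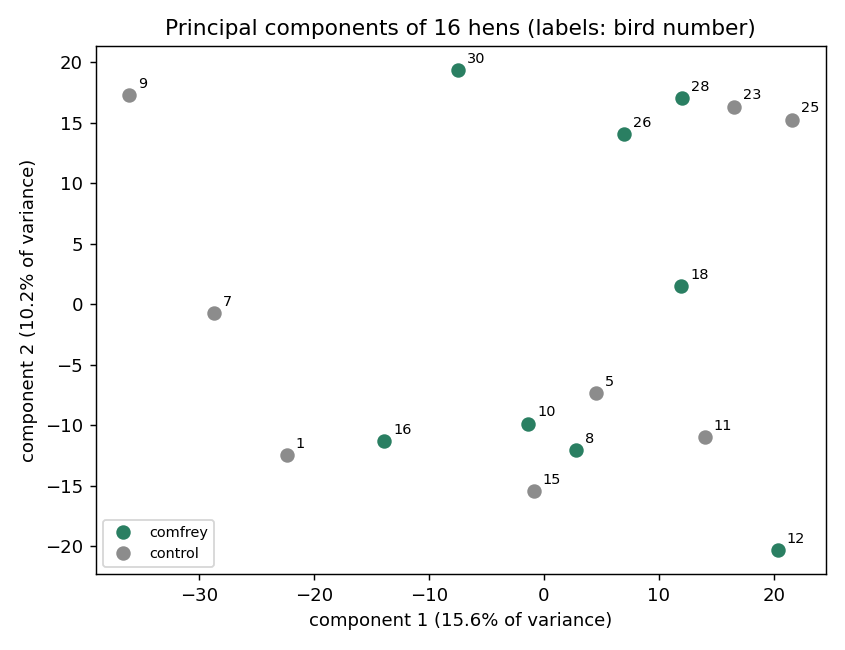
First and second principal components of the 16 arrays, comfrey hens in green and control hens in grey, labelled with the bird number. The diets mix on both axes, while all 6 hens numbered above 16 lie above 0 on component 2 and 9 of 10 numbered up to 16 lie below.

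Bird number divided the hens on component 2, and the diets overlapped on all 3 components. The first 3 principal components held 15.6%, 10.2% and 8.7% of the variance. Component 1 ran from -13.9 to 20.4 in comfrey hens and from -36.1 to 21.6 in control hens, with hen 9 lowest. Component 3 had the widest gap between the diet medians, at 8.6 in comfrey hens and -6.3 in control hens, with ranges of -20.3 to 17.6 and of -23.4 to 14.2. Component 2 was above 0 in all 6 hens numbered 17 to 32 and below 0 in 9 of 10 hens numbered 1 to 16. The labels do not say what the number stands for. Comfrey hens had a mean bird number of 18.5, with 4 hens up to 16 and 4 above, and control hens a mean of 12.0, with 6 and 2. With this division beside diet in the model, 2573 probe sets (14.4%) had an unadjusted p under 0.05 for the division, and 0 passed (lowest adjusted p 0.0529). The share of 4.19% for diet in hens came from the fit without the division. All 24 genes named by p had the same sign of diet difference in both sets of hens, which their choice on all 16 hens favours.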

How the data were processed

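The values were log2 probe set signals of whole blood, made by the authors with GCOS 1.1.1 and RMA, per the submitters' processing notes. The log2 base was read from the deposited values. RMA subtracts background, equalises array distributions and summarises probes, so a shift of all genes would not be seen. Of 20804 rows, 2910 held no value for any bird and were dropped, and 17894 were tested without a filter. They held 10264 probe sets with 1 gene symbol, 182 with several and 7448 with none, and 824 rows repeated an earlier row. Symbols came from the platform annotation, updated through a RefSeq table of assembly GRCg7b (9770 by gene id, 474 by symbol, 15 by an older symbol, 5 unmatched). No label names the genome build of the array.

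The 16 hens were fitted alone with limma 3.58.1 in R 4.3.3 (lmFit and eBayes, two-sided, Benjamini-Hochberg over all probe sets, called at an adjusted p under 0.05). Males and the diet-by-sex difference came from a model of all 32 arrays. Tables were made in Python 3.11.15, and the fit was tested on simulated data. The p-values measure the spread between birds, and replicate numbers pair no birds. Arrays give no counts, so their number limits the precision.

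Named genes came from probe sets with 1 symbol. They were the 12 smallest p in each direction and the 10 smallest in each direction at a mean signal of at least 8. Each list gave its 4 smallest p and its brightest gene. Added to these were 2 microRNA genes in each direction and the smallest p of the diet-by-sex difference in each direction. Genes outside this rule are *XBP1*, *HSPA5*, *CD3E* and *CD3D*, named after their values were seen, and *HINTW*, as the check of sex. A list used the brightest probe set of each gene. The members and the 29 lists were chosen with earlier results of these data known. Alternatives changed the samples, prior, filter, scaling, bird number, array weights or left out a hen. The values within sets of bird numbers, the male lists with a male left out and the antigen presentation mean without *BF2* and *CANX* were chosen after seeing the data.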

Additional observations from a re-analysis of the deposited data

Results flagged for a closer look

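In 19 of 414 groups of 8 hens (the named genes and the list means, each diet apart), the lowest or highest hen stood apart from the others, by Dixon's gap test at its 95% critical value. Chance gives about 1 in 20 groups. Control hen 9 had 6 of these and comfrey hen 8 had 4. Hen 9 was lowest for *PFKFB2* at 8.08 (next 8.52), *HBAD* at 13.78, *NR3C2*, the mineralocorticoid receptor, at 4.59 and *MRPS34* at 9.45, and highest for *CYP1A1* at 6.85 (next 6.46). It was also lowest for the mean of the respiratory chain and ATP synthase list at 8.17, where the next control hen had 8.34. Comfrey hen 8 was lowest for *CTSG*, a granule protease, at 8.49 (next 9.78) and *GCLC* at 12.10. It was highest for *C1S*, of the classical complement pathway, at 5.30 and for the mean of the mitochondrial ribosomal proteins at 7.75.

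Control hen 1 was lowest for *LY6E* at 6.56 and for *HINTW* at 11.65, still far above the males. Control hen 5 was highest for *MAP1LC3B*, an autophagosome protein, at 12.23 and *RPS21* at 10.14. Comfrey hen 16 was lowest for *FANCA* at 3.38 and for the mean of the unfolded protein response list at 8.86. Comfrey hen 12 was lowest for *C4* at 10.19, control hen 25 lowest for *TOP2A* at 3.43 (next 4.76), and control hen 11 highest for *NCOA2* at 7.79 (next 6.70).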

How the results depend on the processing

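No probe set passed the diet test in hens under any alternative but 1: the model of all 32 arrays gave 1 call, *CACNA1H*. Leaving out each of 16 hens in turn gave 0 calls and between 622 and 977 probe sets at an unadjusted p under 0.05, against 749. That count was 454 among probe sets with a mean signal of at least 6 and 452 when only those with 1 symbol were fitted, where fewer were tested. At a mean of at least 6 the median of the monocyte markers was 0.181 and that of oestrogen and steroid signalling 0.047, over fewer genes. With bird number as a covariate the glucocorticoid list had a median of -0.093, and the cause was not tested.

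The medians of gene lists were no firmer. Leaving out 1 hen turned the sign for 16 of 29 lists, with medians of -0.073 to 0.101 for heterophil, -0.02 to 0.147 for thrombocyte, -0.013 to 0.08 for B cell and -0.01 to 0.059 for monocyte markers. They were -0.056 to 0.014 for calcium channel subunits, -0.062 to 0.006 for detoxification, -0.071 to 0.059 for glucocorticoid response, -0.051 to 0.008 for heat shock and -0.006 to 0.045 for antigen presentation. The other 13 lists kept their sign. Among these 13, the T cell list had 0.088 to 0.168 and the cytotoxic list 0.142 to 0.195. Within the sets of bird numbers, 3 lists (thrombocyte, calcium channel, lipid and fuel) had the other sign in both. With bird number as a covariate *CTLA4* had 0.25, *SELP* 0.10, *KDM7A* -0.12, *SELENOP1* -0.12 and *CALCR* -0.14.

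Signs of single differences turned for the following genes, none of which passed the test. With bird number as a covariate the values were 0.014 for *HBA1*, -0.112 for *TLR4*, -0.212 for *CTSG*, -0.042 for *GATA3*, -0.033 for *IKZF3*, -0.027 for *FLI1*, -0.028 for *PLEK*, -0.032 for *GFI1B*, -0.013 for *IFIT5*, -0.015 for *HSP90B1*, -0.007 for *GCLC*, 0.022 for *SLC2A1* and 0.008 for *BTG1*. With hens 1 to 16 against 17 to 32 as a block they were 0.001 for *HBA1*, -0.144 for *CTSG*, -0.031 for *GATA3*, -0.024 for *IKZF3*, -0.028 for *GFI1B*, -0.008 for *HSP90B1* and -0.005 for *PSMA1*. Subtracting array medians gave 0.003 for *FTH1*, 0.003 for *HSPA2* and 0.010 for *NR1H3*, and array weights gave -0.002 for *B2M* and -0.001 for *GCLC*. Leaving out 1 hen gave -0.105 to 0.279 for *HBE*, -0.076 to 0.267 for *CTSG*, -0.002 to 0.066 for *GATA3*, -0.023 to 0.089 for *IKZF3*, -0.03 to 0.063 for *GFI1B*, -0.011 to 0.013 for *B2M*, -0.027 to 0.014 for *HSPA2*, -0.009 to 0.036 for *HSP90B1*, -0.007 to 0.037 for *GCLC*, -0.001 to 0.117 for *CACNG3*, -0.033 to 0.024 for *NR1H3*, -0.058 to 0.005 for *BTG1*, -0.048 to 0.001 for *MAP1LC3B*, -0.018 to 0.016 for *PSMA1* and -0.036 to 0.008 for *RPL32*. No paired analysis was possible because the replicate numbers were given in order within each diet and pair no birds. Of 24 calcium, phosphorus and vitamin D genes 10 had a mean signal of at least 6, of 16 acute phase and complement genes 6, and of 19 oestrogen and steroid genes 7.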

Other observations

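Differences over 1 in size belonged to 28 probe sets, 12 higher and 16 lower on comfrey, of which 23 had an unadjusted p under 0.05 and none passed. These probe sets varied far more between hens than the rest, with a median SD of 1.01 between birds of 1 diet against 0.223 over the whole array. Of the 28, 18 carried 1 gene symbol, and the genes named here were chosen after their values were seen. *LACTB2*, a mitochondrial endoribonuclease, had 8.48 ± 0.62 in comfrey hens and 7.08 ± 1.48 in control hens at 1 probe set. The medians there were 8.20 in comfrey hens and 7.72 in control hens, with the lowest control hen at 4.37, and males differed by 1.24. But the other probe set of *LACTB2* had 7.23 ± 0.34 in comfrey hens and 7.11 ± 0.23 in control hens, with a difference of 0.24 in males. *ECHS1*, an enoyl-CoA hydratase of mitochondrial fat oxidation, had 4.00 ± 1.15 in comfrey hens and 5.24 ± 0.64 in control hens.

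2 of these genes lie on the same chromosome as *BF2* in the RefSeq table. *BTN3A3L1*, a butyrophilin-like gene, ran from 3.72 to 8.33 in comfrey hens (mean 5.79 ± 1.53) and from 5.51 to 8.20 in control hens (mean 7.23 ± 1.03). *LOC417058* ran from 6.79 to 12.10 in comfrey hens and from 8.30 to 13.06 in control hens. The hens of each diet thus spanned most of the range of signal in both genes, and a difference of -1.44 (SE 0.60) or -1.19 (SE 0.82) did not pass.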
